A study of Mus musculus with 6 samples.

Results

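The genes described here are the cytosolic ribosomal protein genes of mouse embryonic fibroblasts. They were chosen by name, as rows called Rpl or Rps with a number, Rplp0 to Rplp2 or Rpsa, with a mean of at least 50 normalised read counts over the 6 libraries. Of 27179 rows in the table, 85 had such a name and 81 reached the mean, 49 of the large and 32 of the small ribosomal subunit. RNA sequencing was carried out on fibroblasts of the genotype Cas9+, E1A and HrasG12V, which carry a nuclease, an adenoviral oncogene and an activated Hras oncogene. A group of 3 control libraries received the negative control guides EV, SPA and ACOCA, and a group of 3 knockout libraries received the Zmat3 guides 52.6, 51.5 and 54.8. Guides came by lentivirus in both groups, infected cells were selected, and RNA was taken after 10 days in culture. All groups share the Cas9, E1A and HrasG12V background, and the cells were not described as clones. No guide was used more than once, so the spread within a group includes guide differences, and the labels leave out whether cells shared a starting culture.

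Cytosolic ribosomes translate nearly all proteins of the cell. The large subunit forms peptide bonds and carries the exit tunnel, and the small subunit binds the messenger RNA and reads its codons. Each subunit needs 1 copy of nearly every ribosomal protein, and transcripts of these proteins share a pyrimidine tract at their start through which growth signals set their translation together. Several ribosomal proteins that are not built into ribosomes bind Mdm2, the ubiquitin ligase that keeps the tumour suppressor p53 low. Zmat3 is a p53 target gene that encodes a zinc finger RNA-binding protein. Mammalian genomes hold many processed copies of ribosomal protein genes, and most of those copies are thought to be inactive.

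Zmat3 stood at 17169, 15868 and 17434 normalised counts in control and at 11421, 4912 and 4960 in knockout. The groups did not overlap, and knockout library 1 kept more transcript than the other two. Reads assigned to genes ran from 53253055 to 90256118 per library. Control library 3 stood apart from the other 5: a first principal component over all genes took 59.2% of the variance and set it against the rest. Fibroblast markers summed to between 218292 and 261068 normalised counts in every library, although 2 of the 10 were under 10 throughout, with Lum at 0. Epithelial markers summed to 12407.5 to 29600.5 in control, lowest in control library 3, and to 20372 to 25394 in knockout, with 2 of the 6 under 10 throughout. Muscle markers summed to 1635, 1713 and 253 in control and to 1648 to 1815 in knockout. Endothelial sums ran from 181 to 720 and neural sums from 53.1 to 193 over the libraries. Leukocyte markers summed to 817 to 6058 in control, lowest in control library 3, and to 7175 to 9248 in knockout, with 4 of the 7 under 10 in every library. Markers of dividing cells summed to 86717 to 123954 in control and to 61588 to 70501 in knockout. The part of these marker differences in the results below was not tested, and in bulk samples fewer cells of a type and less RNA per cell cannot be told apart.

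The ribosomal protein genes took a larger share of reads in all 3 knockout libraries than in the controls. In order of replicate, they held 1.99%, 1.88% and 2.07% of assigned reads in control and 2.46%, 2.19% and 2.31% in knockout. The control mean was 1.98% ± 0.0935 and the knockout mean 2.32% ± 0.139 (SD, n = 3 each). Small subunit genes held 0.888%, 0.854% and 0.885% in control against 1.14%, 0.988% and 1.06% in knockout, with no overlap. Large subunit genes held 1.10%, 1.03% and 1.18% in control against 1.33%, 1.20% and 1.25% in knockout, where control library 3 came close to knockout library 2. The ratio of large to small subunit reads was 1.24, 1.20 and 1.34 in control and 1.17, 1.21 and 1.18 in knockout. These ratios overlapped, since knockout library 2 lay above control library 2. A share of reads is set mostly by the most abundant members, and it carries no test here because a sum over chosen members is a description.

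**Figure D1:**
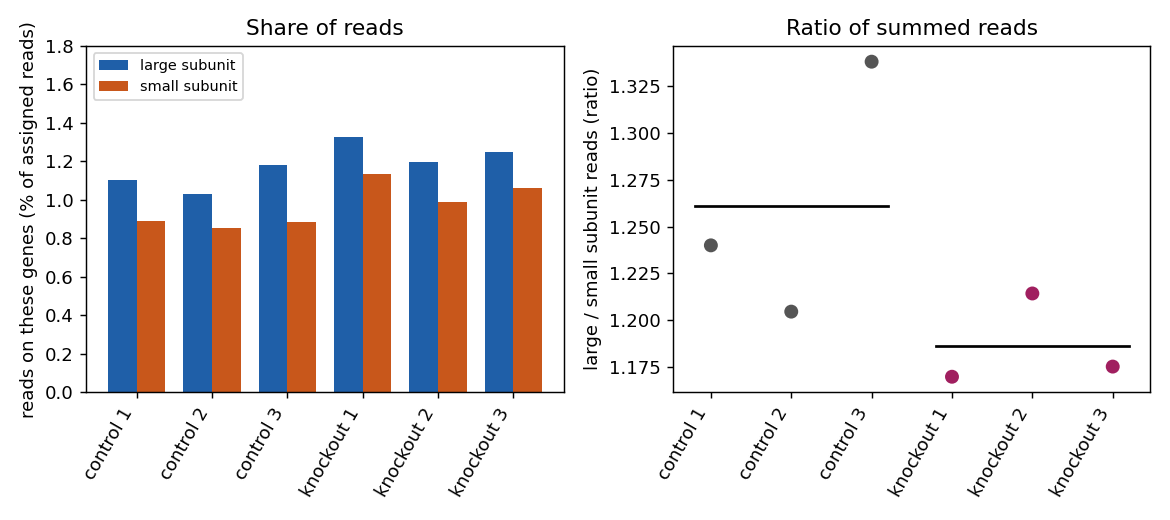
Left, the percent of assigned reads on large and small subunit genes in each of the 6 libraries. Right, the ratio of large to small subunit reads per library, with lines at the group means of 1.26 and 1.19; the small subunit bars are separate between the groups, while the ratios overlap.

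Gene by gene, no ribosomal protein gene was called by the main test. Limma, a moderated linear model on log2(value + 1), called 0 of 14802 genes (0%) and 0 of the 81 members at an adjusted p of 0.05. An unadjusted p under 0.05 was reached by 16 members, 14 higher and 2 lower in knockout, and by 13.2% of all genes, 6.02% higher and 7.15% lower. EdgeR's quasi-likelihood test on the recovered reads also called 0 members, with 15 at an unadjusted p under 0.05. DESeq2 called 4 members, all higher, beside 1.52% of all genes, of which 0.649% were higher; with no filter on low counts it called 0 members and 0.587% of all genes. The median log2 fold change was 0.11 over the members and 0.01 over all genes tested. Of the members 53 had a positive log2 fold change, against 51.6% of all genes. The 3 knockout values lay above all 3 control values for 20 members and below them for 6, against a background of 27.5% of genes with groups apart, 13.1% higher and 14.3% lower.

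Small subunit genes had a median log2 fold change of 0.18 and 24 of 32 positive values, and large subunit genes 0.05 and 29 of 49. Without control library 3 these medians were 0.26 and 0.16, and 67 of the 81 members had a positive log2 fold change. Without control library 1 the small and large subunit medians were 0.14 and -0.03, with 46 members positive, and without control library 2 they were 0.12 and -0.02, with 44 positive. Without control library 3, limma called 5 genes (0.0338%), none of them a member. The knockout values lay above both remaining controls for 44 members and below them for 6, while 17.4% of all genes lay above and 35.0% were apart in either direction. DESeq2 without that library called 8 members, all higher, beside 4.93% of all genes, of which 2.30% were higher. Without control library 1 it called 15 members, 10 higher and 5 lower, beside 16.2% of all genes, and without control library 2 it called none. The 5 lower ones were Rps2, Rpl27, Rpl30, Rpl34 and Rps27a. The difference between the subunits was not tested, because the members are not replicates of a subunit. The subunits also differed in level, with a median over genes of 2833 normalised counts in the large and 13590 in the small subunit.

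Rpl22, Rpl23, Rps24 and Rps15a were the members that DESeq2 called, each between 34.6% and 40.0% higher in the knockout mean. Rpl22, an RNA-binding protein of the large subunit, stood at 17030, 16156 and 16524 normalised counts in control and at 24179, 20506 and 22221 in knockout. Rpl23, a large subunit protein that also binds Mdm2, stood at 7020, 6167 and 5949 in control and at 9039, 8939 and 8611 in knockout. For both genes the groups were well separated, and no control library stood away from the other two by as much as the groups differed. Rps24, a small subunit protein needed for processing of the ribosomal RNA precursor, stood at 29478, 29536 and 31978 in control and at 47705, 38717 and 40496 in knockout. Rps15a, a small subunit protein, stood at 13981, 14122 and 14685 in control and at 22542, 17475 and 19893 in knockout. Knockout library 1 was the highest library for all 4 genes, although it kept the most Zmat3 transcript of the knockout libraries. Whether these levels follow the loss of Zmat3 was not tested.

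The log2 fold changes by limma were 0.43 (SE 0.11) for Rpl22, 0.48 (SE 0.11) for Rpl23, 0.48 (SE 0.12) for Rps24 and 0.48 (SE 0.12) for Rps15a, each with an adjusted p of 0.372. DESeq2 gave adjusted p-values of 0.026, 0.0127, 0.0363 and 0.0475 in that order. An exact two-sided permutation test of each gene's 6 values gave p = 0.1, the smallest that 3 libraries against 3 allow. DESeq2 still called all 4 without control library 1 or 3, called Rps24 but not the other 3 without knockout library 1, and called none of them without control library 2, knockout library 2 or knockout library 3. Further members called by DESeq2 without control library 3 included Rpl32, Rps25 and Rps26. Control library 3 was the highest control for each of these. Rps26, a small subunit protein at the messenger RNA exit site, stood at 14563, 13963 and 19532 in control and at 18809, 18408 and 18770 in knockout. Its groups overlapped through control library 3 alone.

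**Figure D2:**
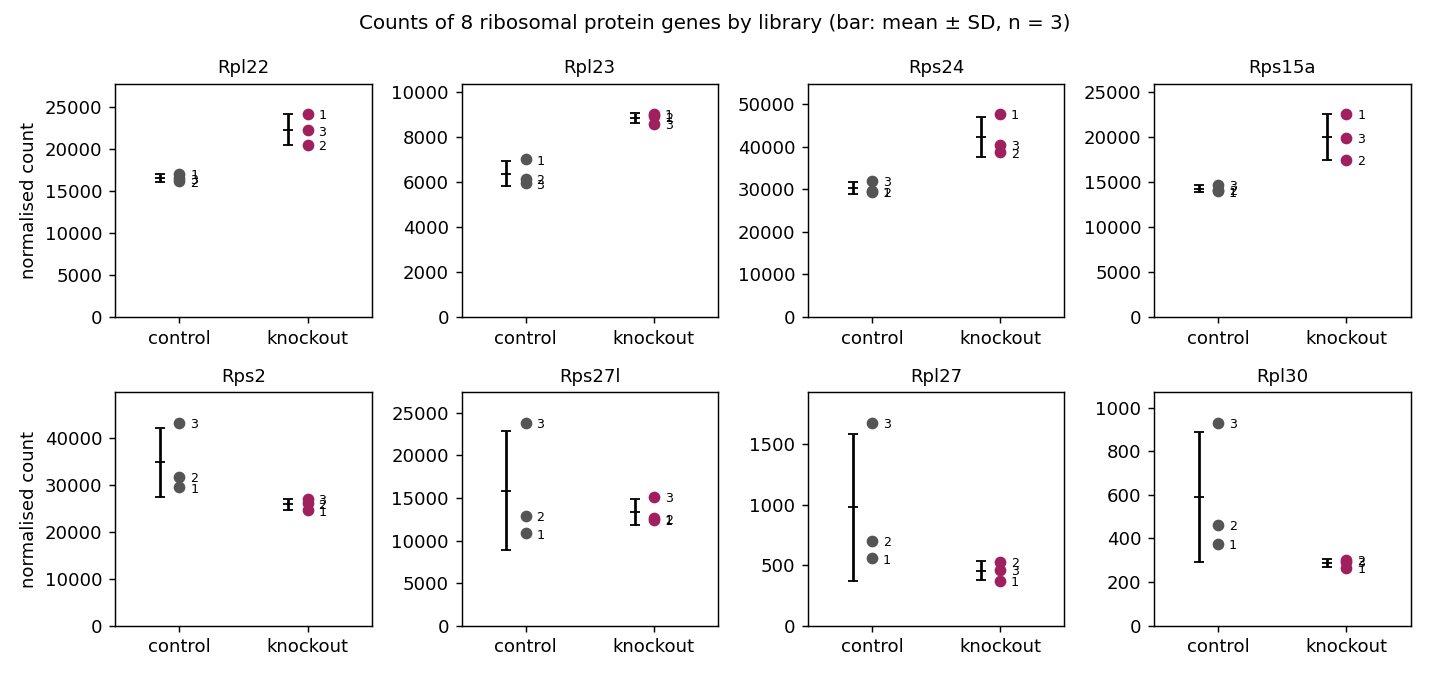
Normalised counts of 8 ribosomal protein genes in each library, numbered by replicate, with the mean and SD (n = 3) beside the points. Rpl22, Rpl23, Rps24 and Rps15a lie higher in all 3 knockout libraries, Rps2, Rpl27 and Rpl30 lie lower, and control library 3 is the highest point for Rps2, Rps27l, Rpl27 and Rpl30.

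The starts of these 4 genes are shown to set the letters of genes called in the same direction side by side. Each line gives 60 bases before to 20 bases after a start that RefSeq lists in GRCm38, written in the sense of the gene, with capitals on the pyrimidine stretch CTTTC or on CGGAAG in either strand.
Rpl22 (chr4:152325666-152325745, plus strand): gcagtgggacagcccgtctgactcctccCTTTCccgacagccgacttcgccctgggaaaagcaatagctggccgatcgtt
Rpl22 (chr4:152324376-152324455, plus strand): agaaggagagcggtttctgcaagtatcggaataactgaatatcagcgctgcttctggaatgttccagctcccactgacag
Rpl23 (chr11:97782420-97782499, minus strand): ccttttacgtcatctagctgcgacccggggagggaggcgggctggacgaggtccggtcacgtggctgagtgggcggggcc
Rps24 (chr14:24490618-24490697, plus strand): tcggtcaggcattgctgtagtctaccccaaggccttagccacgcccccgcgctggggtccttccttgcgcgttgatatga
Rps24 (chr14:24490693-24490772, plus strand): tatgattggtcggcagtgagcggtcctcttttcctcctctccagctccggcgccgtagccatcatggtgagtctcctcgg
Rps15a (chr7:118116128-118116207, minus strand): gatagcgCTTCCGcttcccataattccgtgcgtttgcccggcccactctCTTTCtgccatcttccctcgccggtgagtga
Over the 60 members with a listed start, CTTTC on the sense strand was present anywhere in the window in 22 (36.7%), against 12.0% of 27025 genes. Most of the window lies before the start, as do the CTTTC matches of Rpl22 and Rps15a above. The count is therefore not one of pyrimidine tracts at the start of the transcript. CGGAAG, the core letters bound by Ets family factors, was present on either strand in 20 (33.3%), against 9.31% of genes. TATAAA, searched on the sense strand, was present in 1 member (1.67%) and in 3.84% of genes. Rpl23 and Rps24 held neither CTTTC nor CGGAAG in these windows, and a match is a description of letters, not a binding site. The search took these exact letters, so other pyrimidine stretches, such as the one in the second Rps24 window, were not marked.

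In the large subunit the highest mean counts were those of Rpl4, Rpl8, Rpl41, Rpl7 and Rpl32. Per kilobase of transcript the order was different: Rpl41, which encodes the shortest ribosomal protein, led with a level of 186858 normalised counts per kb, followed by Rps15 with 135782, Rpl32 with 117116 and Rpl8 with 115262. Rpl4 stood at 101774, 105060 and 128022 in control and at 127161, 121825 and 119658 in knockout, overlapping through control library 3. Rpl8 stood at 91720, 87820 and 134798 in control and at 93895, 89536 and 90761 in knockout. Here 1 library sets the sign: the log2 fold change was -0.17 (SE 0.18) with all controls and 0.03 without control library 3. Rpl7 gave a log2 fold change of 0.04 and Rpl41 of 0.12, with overlapping groups. Rpl32 stood at 50386, 48939 and 61413 in control and at 71600, 63860 and 67095 in knockout, a log2 fold change of 0.34 (SE 0.13) with groups apart.

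In the small subunit Rps3, Rps15, Rps14 and Rpsa had the highest mean counts. Rps3, which lies at the messenger RNA entry channel, stood at 99329, 103635 and 110782 in control and at 136557, 115817 and 121178 in knockout, a log2 fold change of 0.25 (SE 0.12) and a limma adjusted p of 0.374. Rps14, a small subunit protein whose haploinsufficiency features in a human myelodysplastic syndrome, stood at 53378, 51484 and 48569 in control and at 63716, 58394 and 66014 in knockout. Rps15 also had separate groups, with a log2 fold change of 0.17. Rpsa, which doubles as a laminin receptor precursor, had overlapping groups with a log2 fold change of 0.15.

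Among the largest positive log2 fold changes, Rps20 (0.51), Rpl13a (0.50), Rpl32l (0.43) and Rps28 (0.40) joined the 4 members above. Rps20 stood at 36346, 29134 and 21077 in control and at 43855, 36818 and 39984 in knockout. Control library 3 was the lowest library there, and without it the log2 fold change was 0.30. Rpl13a, a large subunit protein that also takes part in translational silencing in human monocytes, stood at 37187, 34980 and 27410 in control and at 51266, 41674 and 47269 in knockout. Control library 3 was lowest for it too.

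Rps2 was the exception among the abundant members. This small subunit protein of the messenger RNA entry channel stood at 29439, 31629 and 43166 in control and at 24594, 26049 and 26953 in knockout. All 3 knockout libraries lay below all controls, with a log2 fold change of -0.41 (SE 0.16), a limma adjusted p of 0.372 and an exact permutation p of 0.1. Without control library 3 it was -0.24. No other member of the highest tertile by level had a knockout group wholly below the control group.

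A division of the members into tertiles of 27 genes by mean level, made after the values were seen, separated different patterns. In the middle tertile 24 of 27 members and in the high tertile 21 of 27 had a positive log2 fold change, with medians of 0.20 and 0.17. In the low tertile, with means from 110 to 1367, 19 of 27 were negative and the median was -0.28. Control library 3 was the highest of the 6 libraries for 24 of those 27 genes, against 36.8% of all genes. It lay above the mean of controls 1 and 2 for all 27, by a median of 0.98 log2 units, and by more than 1 log2 unit for 13 of 27, against 6.72% of all genes. Without it the median log2 fold change was 0.09 in the low tertile, 0.24 in the middle and 0.25 in the high tertile. The low tertile held 0.0193%, 0.0192% and 0.0311% of reads in control and 0.0215%, 0.0203% and 0.0212% in knockout. It had 20 large and 7 small subunit genes, so subunit and level were not independent. With all libraries 5 of those 20 and 3 of those 7 had a positive log2 fold change. In the middle tertile 14 of 16 large and 10 of 11 small subunit genes were positive, and in the high tertile 10 of 13 and 11 of 14.

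**Figure D3:**
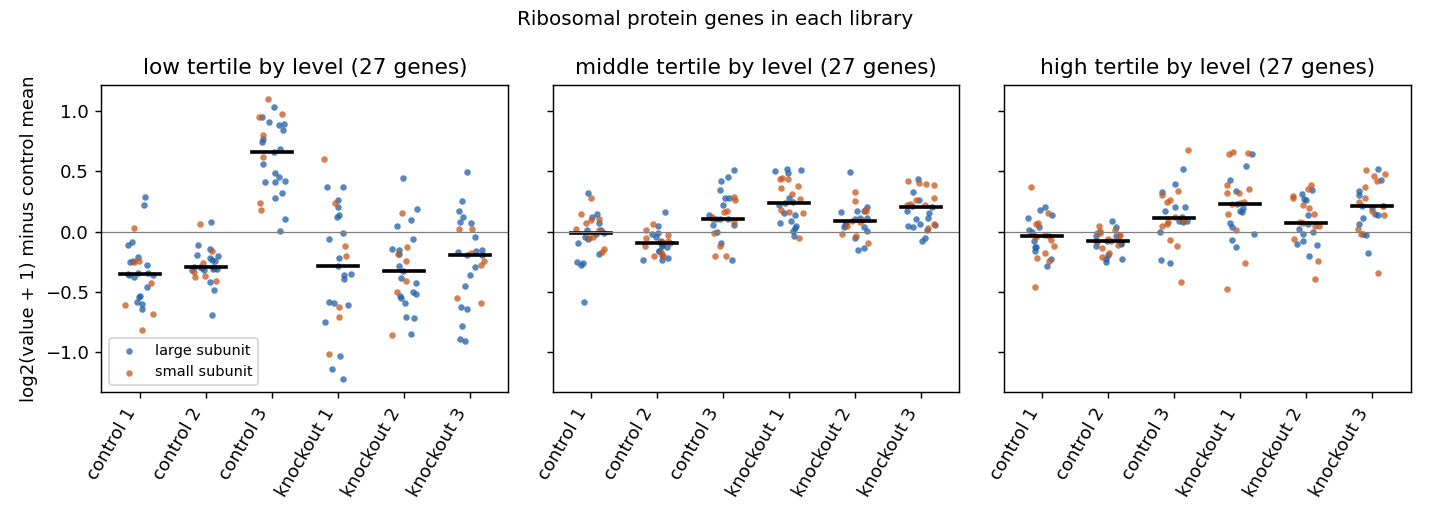
Each point is 1 ribosomal protein gene in 1 library, as log2(value + 1) minus the mean of the 3 control libraries, in tertiles by mean level, with black lines at the medians. In the low tertile control library 3 lies above the other 5 libraries, with a median of 0.66. In the middle and high tertiles the knockout medians lie above 0, but so does control library 3. Its median is 0.11 in both, above knockout library 2 at 0.09 and 0.07.

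**Figure D4:**
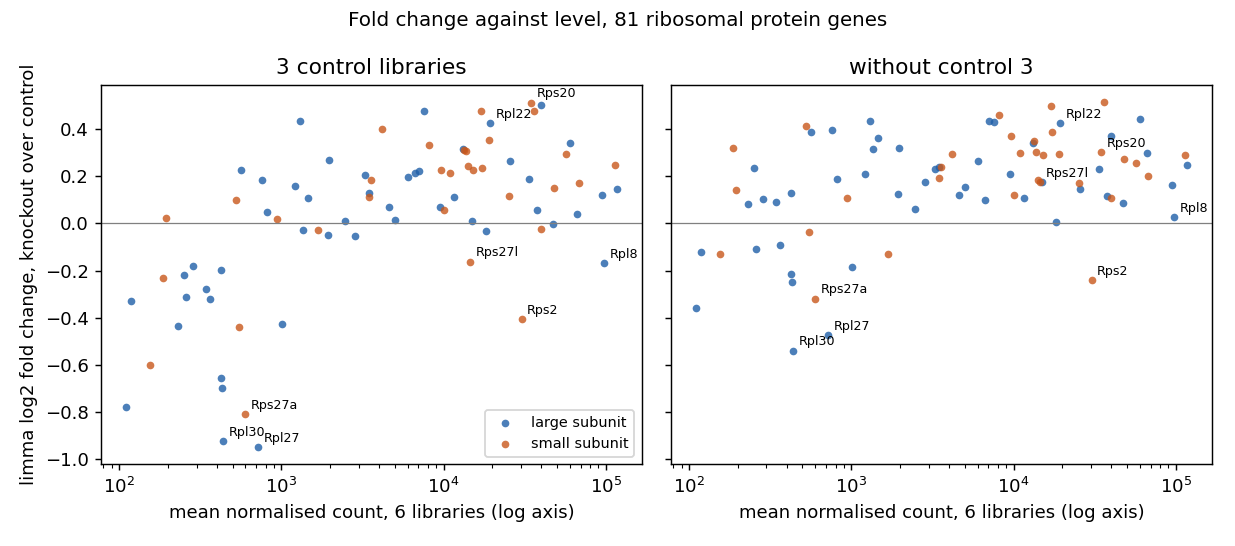
Limma log2 fold change of knockout over control against the mean normalised count on a log axis, for 81 genes, with 3 control libraries and without control library 3. The genes with negative values at low level on the left panel move toward 0 on the right panel, and Rps2 stays below 0 on both.

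The 8 largest negative values all belonged to the low tertile. Rpl27, a large subunit protein, stood at 557, 704 and 1679 normalised counts in control and at 373, 528 and 465 in knockout, a log2 fold change of -0.95 (SE 0.42). Rpl30, a large subunit protein related to kink-turn binding proteins, stood at 376, 463 and 930 in control and at 267, 301 and 294 in knockout, a log2 fold change of -0.92 (SE 0.35). Both had groups apart, and both had a control library 3 more than 2 times the next control. Rps27a, made as a fusion with ubiquitin, stood at 393, 622 and 1369 in control and at 343, 382 and 473 in knockout. The groups overlapped, and without control library 3 its log2 fold change went from -0.81 to -0.32. The others were Rpl29 (-0.78), Rpl34 (-0.70), Rpl13 (-0.66), Rps29 (-0.60) and Rps23 (-0.44). Without control library 3 these stood at -0.36, -0.25, -0.21, -0.13 and -0.04.

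Low members often had a near-identical copy with far more reads. Rps27, Rpl24 and Rpl30 are shown because a copy row with more reads holds 100%, 88.2% and 83.1% of their coding stretches of 50 bases. Each line gives the first 60 coding bases from GENCODE M21 on GRCm38, with capitals where the sequence differs from the first line of its group.
Rps27 (chromosome 3): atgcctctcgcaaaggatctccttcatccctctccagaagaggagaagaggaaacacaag
Rps27rt (chromosome 9): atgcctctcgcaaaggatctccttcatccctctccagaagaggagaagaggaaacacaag
Rps27l (chromosome 9): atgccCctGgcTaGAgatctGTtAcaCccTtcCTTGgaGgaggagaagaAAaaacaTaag
Rpl24 (chromosome 16): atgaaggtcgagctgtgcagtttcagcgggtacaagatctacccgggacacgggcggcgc
Gm9385 (chromosome 9): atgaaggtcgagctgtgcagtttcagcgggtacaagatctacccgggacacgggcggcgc
Rpl30 (chromosome 15): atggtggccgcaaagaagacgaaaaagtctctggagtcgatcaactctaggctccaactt
Gm12191 (chromosome 11): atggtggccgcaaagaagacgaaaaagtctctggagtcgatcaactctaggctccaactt
Over the whole coding sequence Rps27rt had 0 differences from Rps27 in 252 bases, Gm9385 had 1 from Rpl24 in 471 and Gm12191 had 1 from Rpl30 in 345. Rps27l, a separate gene for a Rps27-like protein, differed at 18 of these 60 bases.

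Copy rows were defined, after the values were seen, as rows of other genes that hold at least 20% of a member's coding stretches of 50 bases, carry a Gm number or the member's name, and reach the same mean of 50. There were 33 such rows for 26 members, and 3 of the rows are themselves counted among the 81. The copies had more reads than the named gene in 14 of the 26 cases. Rps27 had a mean of 195 normalised counts and Rps27rt 15999, Rpl24 had 253 and Gm9385 25299, and Rps23 had 546 and Gm5148 29454. Rpl34 had 431 and Rpl34-ps1 14176, Rpl37 had 1220 and Rpl37rt 33720, and Rpl30 had 438 and Gm12191 10107. Such a low row is therefore an uncertain measure of its gene, since the counting step could place the reads of 1 gene on another row.

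In the 14 cases where the copies were higher, all 14 copy sums had a positive log2 fold change, and 6 of the 14 named genes had a negative one. Rps27rt stood at 13006, 13409 and 13022 in control and at 20203, 17962 and 18389 in knockout, a log2 fold change of 0.52 (SE 0.10) with a limma adjusted p of 0.372 and a DESeq2 adjusted p of 0.000268. Rps27 itself stood at 195, 160 and 227 in control and at 226, 169 and 194 in knockout, with overlapping groups. Gm12191 gave 0.29 and Rpl34-ps1 0.30, where Rpl30 and Rpl34 gave -0.92 and -0.70. Rpl17-ps10 stood at 13448, 13301 and 9968 in control and at 23071, 17222 and 18821 in knockout, a log2 fold change of 0.69 and a DESeq2 adjusted p of 0.0415. Over the 33 copy rows the median was 0.24, 29 were positive, and 13 had groups apart, all higher in knockout, beside 13.1% of all genes apart and higher and 27.5% apart. Of the members called by DESeq2, Rpl23, Rps24 and Rps15a have copy rows: Gm9794, a copy of Rpl23, had a mean of 54459, against 7621 for Rpl23. Their log2 fold changes with copies summed were 0.27, 0.46 and 0.45, with groups still apart. With each named gene and its copies summed, 55 of 78 genes were positive, and the medians were 0.13 over all, 0.11 in the large and 0.18 in the small subunit.

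**Figure D5:**
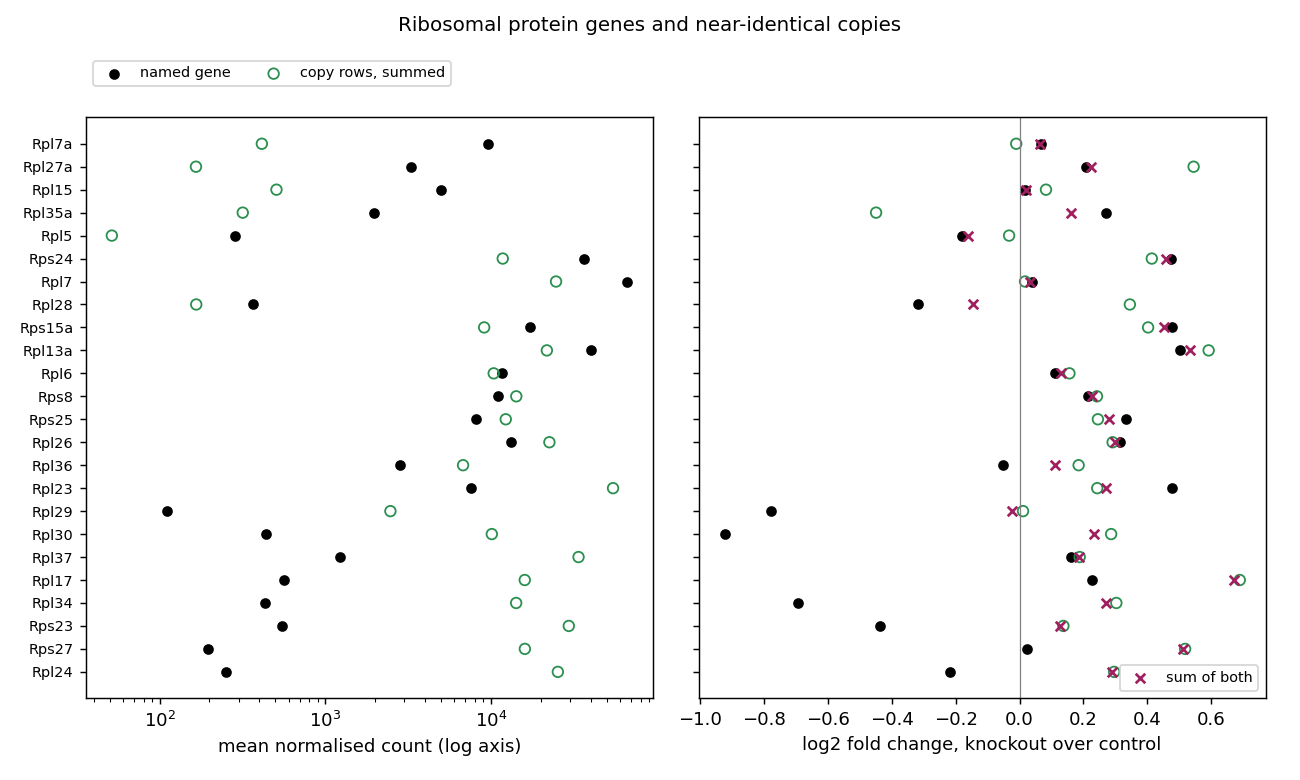
For 24 of the 26 ribosomal protein genes with copy rows, the mean normalised count of the named gene and of its summed copy rows on a log axis (left), and the log2 fold changes of both and of their sum (right), ordered by the share of the named gene. For Rpl24, Rps27 and other genes at the bottom the copies hold nearly all reads, and the fold change of the sum follows that of the copies.

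The share of a member's coding stretches of 50 bases that no other annotated gene holds rose with its level. Its median was 0% in the low tertile, where 19 of 26 members with a coding sequence had none, 6.79% in the middle tertile and 39.6% in the high tertile. Across 77 members Spearman's rho between that share and the log2 mean was 0.71, given as a description, since the genes share libraries and copies. Rps3 had 91.9% and Rpl8 91.3%, and both ranked among the highest. Across the 81 members rho between the log2 mean and the log2 fold change was 0.56, and 0.35 without control library 3. Whether the placing of reads on copies shapes the low tertile was not tested.

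Of the 12 ribosomal proteins listed as binding Mdm2, 8 had a positive log2 fold change, with a median of 0.18, and 5 had groups apart, all higher in knockout. Of all genes 51.6% were positive and 13.1% apart and higher. Of the 81 members, which include these 12, 53 were positive and 20 apart and higher, so the list is not set off from the other members. The 12 were not all alike. Besides Rpl23, Rps3, Rps14 and Rps20, Rpl26 stood at 12272, 10709 and 12174 in control and at 16596, 13171 and 14057 in knockout. Rpl5 and Rpl11, which with the 5S ribosomal RNA form the particle that holds Mdm2, had negative values of -0.18 and -0.43 and overlapping groups. Rpl5 stood at 233, 255 and 439 in control and at 285, 243 and 260 in knockout, and Rpl11 at 962, 960 and 1598 and at 758, 803 and 995. Both are low rows in which control library 3 is the highest, and without it Rpl5 was at 0.10 and Rpl11 at -0.18. Rps7 and Rps25 gave 0.11 and 0.33 with overlapping groups.

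Rps27l, a p53 target gene that encodes a Rps27-like protein, stood at 10827, 12898 and 23824 in control and at 12446, 12598 and 15154 in knockout. Its groups overlapped, the log2 fold change was -0.16 (SE 0.29), and the exact permutation p was 0.8. Without control library 3 it was 0.18. The proteins of the stalk, which recruits translation factors, showed overlapping groups, with Rplp0 at 0.00, Rplp1 at 0.06 and Rplp2 at 0.21. Of 15 genes mutated in human Diamond-Blackfan anaemia, 11 were positive, with a median of 0.18, and 5 had groups apart and higher and 1, Rpl27, apart and lower, beside 13.1% higher and 14.3% lower of all genes. Of the 81 members, which include these 15, 53 were positive, 20 apart and higher and 6 apart and lower. Among the higher ones of the 15, Rps19, the gene most often mutated in that disease, stood at 12141, 11176 and 12600 in control and at 15313, 13468 and 15791 in knockout.

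The 4 named rows under the mean of 50 were Rpl3l (6.90), Rpl39l (12.1), Rpl10l (1.19) and a copy of Rpl34 (13.1), and the members just above it were Rpl29 (110) and Rpl39 (118). Rpl3l is a paralog of striated muscle and Rpl10l and Rpl39l are paralogs of the male germ line. Rpl3, the parent of Rpl3l and a protein of the peptide bond centre, stood at 341, 358 and 693 in control and at 435, 327 and 394 in knockout. Rpl10, the parent of Rpl10l and a protein that joins late in assembly, stood at 584, 638 and 946 in control and at 815, 757 and 842 in knockout. The log2 fold changes were -0.20 for Rpl3, 0.19 for Rpl10, -0.31 for Rpl36a and 0.06 for Rps4x, all with overlapping groups. Without control library 3 they were 0.13, 0.40, -0.11 and 0.12 in that order. All 81 members passed the filter on low counts.

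Of 7 other ribosome genes tested, whose names lie outside the rule, 1 was positive and the median was -0.22, but without control library 3, 4 were positive and the median was 0.05. The one positive with all libraries was Rack1, a scaffold protein of the small subunit, at 75177, 70406 and 79206 in control and 89370, 79586 and 84605 in knockout, with groups apart. Of 18 other genes whose transcripts begin with a pyrimidine tract, 9 were positive, the median was 0.05, and 6 had groups apart and higher and 2 apart and lower. Eif3h, a translation initiation factor subunit, was at 0.35, and Pabpc1, the poly(A)-binding protein, at 0.47, or 0.26 without control library 3, each with groups apart. The 2 lower ones were Hnrnpa1, a splicing regulator, at -0.43 and Nap1l1, a histone chaperone, at -0.38. Of 13 genes that regulate such transcripts, 11 were negative, with a median of -0.26, 6 had groups apart and lower, and 1, Tial1, apart and higher, beside 14.3% and 13.1% of all genes. Larp1, which binds the pyrimidine tract start and represses its translation, stood at 19745, 20597 and 29083 in control and at 14891, 13742 and 13367 in knockout, a log2 fold change of -0.70 (SE 0.17) with adjusted p-values of 0.372 by limma and 0.028 by DESeq2. Mtor, the kinase upstream of Larp1, stood at 9266, 8902 and 8106 in control and at 6995, 6803 and 6864 in knockout, a log2 fold change of -0.34. In both genes every knockout library lay below every control library.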

How the data were processed

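The authors' deposited signal has the form of counts scaled by a size factor for each library. All values (100%, within 0.001) were whole multiples of the value of 1 read, which let the reads be recovered. Per the submitters' processing notes, STAR, DESeq2 and mm10 were used; the sources used here do not name the counter, its strand setting or how it treated reads with several matches. Genes were kept by filterByExpr (minimum 10), which left 14802. Limma 3.58.1 (trend, robust; R 4.3.3) tested log2(value + 1) between the groups in a two-sided fit, with Benjamini-Hochberg adjustment over all genes at 0.05; fold changes on this scale understate those of low genes. EdgeR 4.0.16 and DESeq2 1.42.0 ran on recovered reads as alternatives. Limma alone was also run on simulated data, and edgeR and DESeq2 were not. No pair of libraries within a group agreed within sampling noise, and pairs across the groups were not checked. Shared stretches of 50 bases came from GENCODE M21 transcripts, and starts from RefSeq GRCm38.p6.

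The members, gene lists and tests were chosen with earlier results of these data known. Named members were the 5 most abundant per subunit, the 8 largest values in each direction, those called by any tool with all libraries, and those of the lists on Mdm2 binding, the 5S particle, the stalk and paralogs, with at most 4 genes from each list outside the rule. Rps2, Rps19 and the copy rows were named after their values were seen. Some members are counted but not reported by name here.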

Additional observations from a re-analysis of the deposited data

How the results depend on the processing

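Over all genes, limma called 0 and DESeq2 225 on the same genes, or 130 with no filter on low counts (an alternative chosen after seeing the data), which tests more genes. With 1 library left out, the number called ran from 0 to 2398 over all genes and from 0 to 15 over the members, over both tools. With all libraries, DESeq2 called 4 members. Limma at a threshold of 0.1, with no filter, pseudocounts of 0.5 and 10 or another scaling called 0, and so did edgeR. The members' median log2 fold change stayed positive, at 0.03 with control library 2 left out and 0.19 with control library 3 left out, and was 0.18 with library totals as the scale, where all genes moved to 0.07. The share of reads and the ratio of large to small subunit reads kept their direction under each alternative tried. This is a limited check, since neither depends on the scaling or the tool. The share had groups apart, so leaving out 1 library could not turn it. The ratios of the groups overlapped, and control library 3 had the highest, 1.34.

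Among the named genes, 10 changed sign under some alternative, none of them called. Rpl7 was -0.0047 by edgeR, -0.0077 by DESeq2 and -0.0057 by DESeq2 with no filter. With library totals as the scale Rplp0 was 0.076, and by TMM scaling Rplp0 was 0.00034. With 1 library left out the ranges were -0.31 to 0.026 for Rpl8, -0.44 to 0.14 for Rpl3, -0.15 to 0.30 for Rpl7, -0.40 to 0.10 for Rpl5, -0.079 to 0.085 for Rplp0, -0.070 to 0.13 for Rplp1, -0.11 to 0.14 for Rps27, -0.63 to 0.24 for Rpl24, -0.00039 to 0.27 for Rpl37 and -0.45 to 0.18 for Rps27l. The cause was not tested.

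The labels number the replicates alike in both groups. Deviations of same-numbered libraries correlated at 0.264, 0.198 and -0.0137, so the numbers were not taken as pairs. With the replicate block limma called 0 genes and 0 members, and the median of the members was 0.11. A design of 3 libraries a group cannot give an exact permutation p under 0.1.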
